A study of Mus musculus with 4 samples.

Results

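The transforming growth factor beta (TGF-beta) genes described here are 10 of the 25289 gene columns of the deposited single-cell count tables. They were chosen by name: the ligand genes Tgfb1, Tgfb2, Tgfb3 and Inhba, the receptor genes Tgfbr1 and Tgfbr2, the signal transducer Smad3, its inhibitor Smad7, the TGF-beta-induced matrix gene Tgfbi, and Thbs1, which encodes the ligand activator thrombospondin 1. Each gene was read in all 4 libraries, over cells that had 1000 or more counts, 300 or more genes and no more than 30% of counts from mitochondrially encoded genes. The study compared the small-intestinal epithelium of adult C57BL/6J mice of 2 genotypes, with 2 libraries each. Control mice were Lats1fl/fl Lats2fl/fl, so both genes were flanked by loxP sites and no Cre was present. Lats-deleted mice carried the same loxP alleles and Lrig1-CreERT2, a Cre recombinase expressed from Lrig1 that tamoxifen activates, so deletion starts in Lrig1-expressing cells and passes to their descendants. Both groups received 2 mg of tamoxifen into the peritoneum, and tissue was taken 7 days later. Sorted cells bore EpCAM and lacked CD45, TER119 and the DAPI stain of dead cells, and 5000 per condition were loaded into inDrop v2, a droplet method that barcodes the RNA of each cell. The labels do not say whether the libraries came from separate animals, and a p-value therefore covers only the spread among them, which may be technical.

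TGF-beta ligands are secreted in a latent complex that holds them inactive in the matrix. Thrombospondin 1, integrins and proteases can free them, and the free dimer then brings together the type II receptor TGFBR2 and the type I receptor TGFBR1, which phosphorylates SMAD2 and SMAD3. In the intestine the pathway is known for restraining epithelial proliferation and for a role in wound repair, and LATS1 and LATS2 are the Hippo kinases that hold back YAP and TAZ, coactivators whose targets include matrix and wound genes.

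The cells kept numbered 774 and 515 in control libraries 1 and 2 and 726 and 1289 in Lats-deleted libraries 1 and 2, from total counts of 2247269 to 9191916 per library. A kept cell had a median of 1708 and 1995 counts in controls and of 3715.5 and 3848 after deletion, and 4 to 12 kept barcodes were shared by each pair of libraries. Levels are given in CPM, the usual unit of counts scaled to a common library total. Lats1 was at 23.4 and 35.2 CPM in controls and 6.93 and 9.26 after deletion, and Lats2 at 9.20 and 10.6 against 27.2 and 20.1. Since the assay reads the 3' end and the deleted exons are not named in the labels, these levels do not check the labels. Enterocyte markers summed to 25750 and 25650 CPM in controls and to 1521 and 709 CPM after deletion. Lats-deleted library 1 stood apart in stromal markers, at 1443 CPM against 31.8 to 151 in the other libraries. Lats-deleted library 2 stood apart in stomach markers, at 9406 CPM against 13.5 to 22.8. Sex-linked genes also differed: Xist was at 10.6 and 7.03 CPM in controls and 585 and 478 after deletion, and the Y-linked gene Ddx3y at 46.7 and 39.6 against 6.67 and 4.39, so sex and genotype cannot be told apart in any comparison.

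In the sum of all kept cells, Thbs1, Tgfb2 and Tgfbr2 were far higher in the Lats-deleted libraries and Tgfbi was far lower. Tgfb3 and Smad3 were higher by a smaller and less stable margin, while Tgfb1, Tgfbr1 and Smad7 did not pass the test and Inhba had too few counts. Of the 9 genes tested, 5 rose and 1 fell in edgeR's quasi-likelihood test at an adjusted p under 0.05 (Benjamini-Hochberg, over all genes), where 30.8% of the 12561 genes tested were called, 15.3% higher and 15.5% lower. The median log2 fold change was 1.26 over the 9 genes and 0.05 over all genes tested. Since the genes were chosen with earlier results of these data known, these comparisons with all genes only describe the set. The groups did not overlap for 8 of the 9 genes, the exception being Smad7, where 68.8% of all genes showed no overlap. In such sums, fewer cells of a type and less RNA per cell cannot be told apart. CPM below are scaled to TMM library sizes unless stated otherwise; with plain totals the median fold change of all genes moved to 0.30, and the calls were 2772 higher and 1575 lower in place of 1923 and 1946.

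**Figure D1:**
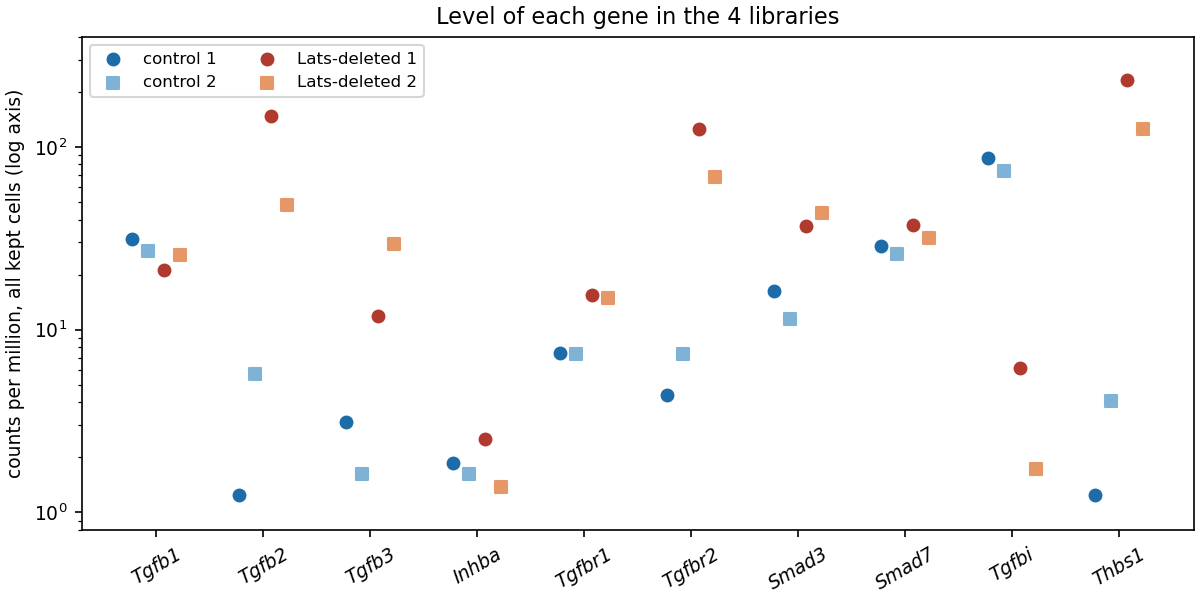
Level of each of the 10 genes in the 4 libraries, in plain CPM over all kept cells on a log axis; each point is 1 library. Thbs1, Tgfb2 and Tgfbr2 lie higher in both Lats-deleted libraries, Tgfbi lies lower, the points of Inhba overlap, and those of Smad7 lie slightly above the controls on this plain scale, whereas its TMM-scaled values overlap.

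Thbs1 (ENSMUSG00000040152.8, chromosome 2, 118111876 to 118127133 on GRCm38) encodes a large matrix glycoprotein that binds the latency peptide of TGF-beta. Its level was 1.42 and 4.39 CPM in control libraries 1 and 2, from 2 and 5 counts, and 211 and 118 CPM in Lats-deleted libraries 1 and 2, from 823 and 728 counts. Both Lats-deleted libraries were far above both controls. The log2 fold change was 5.87 (SE 0.529, n = 2 libraries per group, edgeR adjusted p = 0.000502), and it stayed between 5.20 and 6.84 over 14 alternatives, with a largest adjusted p of 0.0202. The ratio of summed counts over summed plain totals was 66.8 (95% counting interval 32.4 to 166.5). The counts were spread over many cells: 229 and 268 cells of the Lats-deleted libraries held at least 1, and the fullest cell held 4.86% and 5.91% of them. With every cell thinned to 1000 counts, Thbs1 was detected in 0.129% and 0.194% of control cells and in 13.1% and 8.15% of Lats-deleted cells. Without thinning the shares were 0.258% and 0.971% against 31.5% and 20.8% (exact permutation p = 0.3333 either way, two-sided, the smallest that 2 against 2 libraries allow).

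Tgfb2 (ENSMUSG00000039239.14, chromosome 1, 186622792 to 186705989) and Tgfbr2 (ENSMUSG00000032440.13, chromosome 9, 116084293 to 116175360) are a ligand gene and the type II receptor gene, which both rose. The 250 bases before their RefSeq starts (GRCm38.p6), on the minus strand at chr1:186705990-186706239 and chr9:116175364-116175613, are printed 5′ to 3′ to show what these promoters hold. Capitals mark CAGACA, a SMAD-binding motif.
Tgfb2: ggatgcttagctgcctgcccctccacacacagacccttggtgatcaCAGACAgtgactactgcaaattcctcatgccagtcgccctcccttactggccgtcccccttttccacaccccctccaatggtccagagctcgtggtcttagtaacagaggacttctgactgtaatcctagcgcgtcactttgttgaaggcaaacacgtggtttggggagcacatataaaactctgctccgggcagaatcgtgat
Tgfbr2: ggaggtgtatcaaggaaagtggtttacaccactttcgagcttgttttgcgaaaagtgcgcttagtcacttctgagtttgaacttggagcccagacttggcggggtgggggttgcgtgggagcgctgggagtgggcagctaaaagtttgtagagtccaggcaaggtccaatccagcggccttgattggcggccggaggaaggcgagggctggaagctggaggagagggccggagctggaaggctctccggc
The Tgfb2 window holds 1 CAGACA, 204 bases before the start, and the Tgfbr2 window holds none, on either strand. Neither holds the TEAD motif GGAATG, the AP-1 motif TGANTCA or the SMAD palindrome GTCTAGAC. Among all 32851 windows of this length in the RefSeq table, 17.1% hold CAGACA, 12.6% GGAATG, 6.75% TGANTCA and 0.167% GTCTAGAC. The windows are 53.6% and 58.4% G and C, with 8 and 12 CpG, against medians of 52.4% and 6 over all windows. RefSeq windows were at hand for 7 of the 10 genes, 8 windows in all, and neither GGAATG nor TGANTCA was in any of them.

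Control libraries 1 and 2 held 2 and 7 counts of Tgfb2, or 1.42 and 6.15 CPM, and Lats-deleted libraries 1 and 2 held 524 and 281, or 134 and 45.6 CPM. Library 1 was thus the higher of the Lats-deleted libraries, and both lay above the controls. The log2 fold change was 4.63 (SE 0.779, edgeR adjusted p = 0.00552), and without control library 1 it was 3.90 with an adjusted p of 0.0777, the 1 of 14 alternatives in which the call was lost. After thinning to 1000 counts, 0.258% and 0.777% of control cells held a Tgfb2 count against 10.9% and 3.72% of Lats-deleted cells. Without thinning these shares were 0.258% and 1.17% against 25.2% and 11.4%.

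Tgfbr2 had 7 and 9 counts in controls, or 4.96 and 7.91 CPM, and 445 and 396 counts after deletion, or 114 and 64.3 CPM. The groups were well apart, and the log2 fold change was 3.81 (SE 0.432, edgeR adjusted p = 0.00116), between 3.35 and 4.32 over the alternatives with the call kept in all 14. Cells with a count made up 0.258% and 0.583% of the control and 10.9% and 6.44% of the Lats-deleted libraries after thinning, and 0.904% and 1.17% against 34.2% and 21.1% without it. Its partner Tgfbr1, the type I receptor kinase, was low throughout, at 8.50 and 7.91 CPM in controls and 14.1 CPM in both Lats-deleted libraries. The groups did not overlap, but the log2 fold change of 0.78 (SE 0.337) did not pass (edgeR adjusted p = 0.128) and passed in none of 13 alternatives.

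The other ligand genes had smaller fold changes. Tgfb1, whose product is the most widely studied TGF-beta, was at 35.4 and 29.0 CPM in controls and at 19.2 and 24.2 CPM after deletion, so the Lats-deleted libraries were slightly lower. Its log2 fold change of -0.57 (SE 0.274, edgeR adjusted p = 0.164) passed in 1 of 14 alternatives, without Lats-deleted library 2, at -0.77 and an adjusted p of 0.0472. Tgfb3 (ENSMUSG00000021253.7, chromosome 12, 86056745 to 86079041) was at 3.54 and 1.76 CPM in controls, from 5 and 2 counts, and at 10.8 and 27.8 CPM after deletion, from 42 and 171 counts. Here library 2 was the higher of the Lats-deleted pair, and the log2 fold change was 2.82 (SE 0.686, edgeR adjusted p = 0.0218). That call was lost in 5 of 13 alternatives: without control library 1 or 2 (adjusted p = 0.120 and 0.153), with at least 2000 counts per cell (0.0528), without the stromal-like cells (0.0669), and without stromal-like and stomach-gene clusters (0.0502). The log2 fold change ran from 1.94 without Lats-deleted library 2 to 3.49 without control library 1, and was 2.01 without stromal-like and stomach-gene clusters. Inhba, the gene of the activin A subunit, had 3 and 2 counts in controls and 9 and 8 after deletion, a ratio of 1.03 in plain CPM (95% counting interval 0.363 to 3.56), and was left out by the filter on low counts.

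Of the SMADs, Smad3 (ENSMUSG00000032402.12, chromosome 9, 63646767 to 63757994), which carries the signal to the nucleus, was at 18.4 and 12.3 CPM in controls and 33.6 and 40.9 CPM after deletion. The groups did not overlap, and the log2 fold change was 1.26 (SE 0.306, edgeR adjusted p = 0.0215), with the call lost without control library 1 (0.081) or control library 2 (0.160). Smad7, which blocks the type I receptor and is itself a TGF-beta target, was at 32.6 and 28.1 CPM in controls and at 34.1 and 30.1 CPM after deletion. These TMM-scaled ranges overlapped, while plain CPM were 28.7 and 26.1 against 37.3 and 31.8. The log2 fold change was 0.07 (SE 0.248, edgeR adjusted p = 0.849).

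Tgfbi (ENSMUSG00000035493.10, chromosome 13, 56609523 to 56639562), a secreted matrix protein first found as a TGF-beta-induced gene, went the other way. It was at 99.1 and 80.0 CPM in control libraries 1 and 2, from 140 and 91 counts, and Lats-deleted libraries 1 and 2 had 22 and 10 counts, or 5.64 and 1.62 CPM. It fell by 4.71 on the log2 scale (SE 0.503, edgeR adjusted p = 0.000927) and by 4.00 to 5.75 over 14 alternatives, all of which kept the call, with a largest adjusted p of 0.0261. After thinning, 8.14% and 6.99% of control cells held a count against 0.826% and 0.388% of Lats-deleted cells, and without thinning 14.6% and 12.6% against 2.62% and 0.776%.

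**Figure D2:**
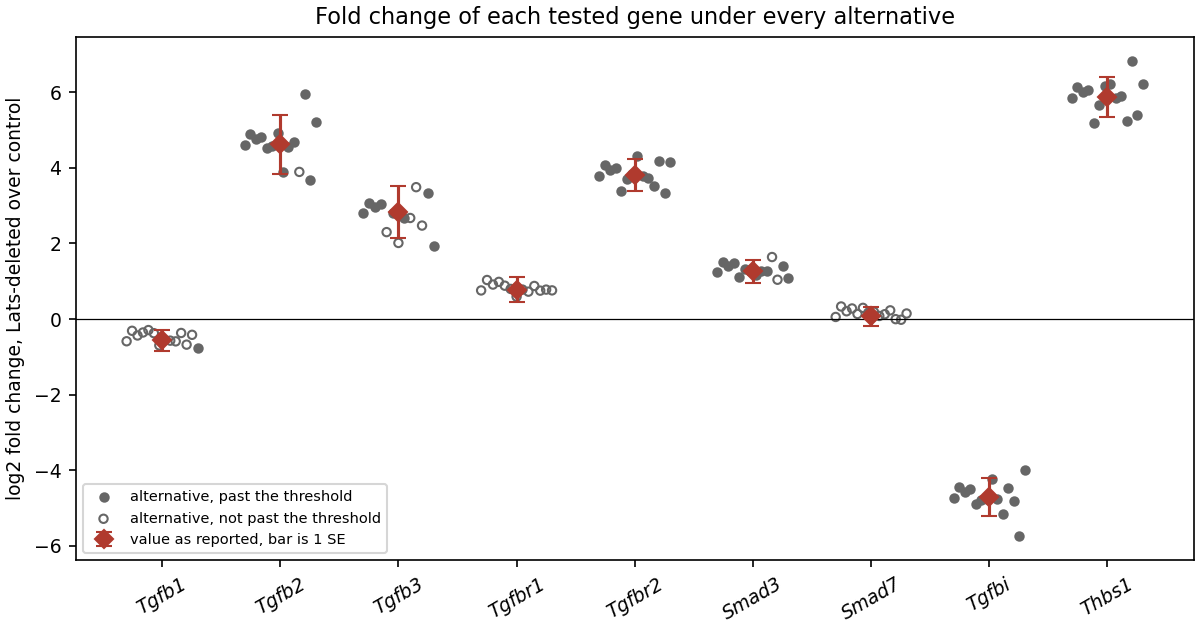
Log2 fold change (Lats-deleted over control) of the 9 tested genes; red diamonds are the values given here with 1 SE, and small points are the alternatives, filled where the adjusted p was under 0.05. Thbs1, Tgfbr2 and Tgfbi kept their call throughout, Tgfb3 and Smad3 lost theirs in several alternatives, and Smad7 lies at 0.

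The levels were then read by cluster, where names ending in "-like" rest on marker genes. Since the clusters were made from these same cells, levels by cluster are a description with no test, and their intervals are exact 95% Poisson limits for counting error. Thbs1 was highest in a regenerative-like cluster of 231 and 177 cells of Lats-deleted libraries 1 and 2 and no control cell, with 31.8% and 13.7% of the libraries' cells. Thbs1 and Tgfb2 are among its 10 genes of highest fold over all other kept cells. So are the YAP targets Ankrd1, Ctgf and Cyr61, the smooth muscle actin gene Acta2 and the plasminogen activator gene Plat. In plain CPM, Thbs1 was at 379 (351 to 408) and 414 (377 to 454) there. The cluster held 83.2% and 63.2% of all Thbs1 counts of the libraries, against 50.72% and 19.05% of their counts of all genes. Its cells had a median of 7036 and 5971 counts, against 1592 and 1952 in the largest enterocyte-like cluster of the controls. Thinned to 1000 counts, 25.5% and 24.9% of its cells held Thbs1, against 0 of 261 and 0 of 189 cells of that enterocyte-like cluster, which allows shares of cells with a count of up to 1.15% and 1.59%. Without thinning the shares were 64.9% and 61.6%.

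Several levels of Thbs1 below that cluster overlapped in their intervals. The stromal-like cluster followed, at 168 CPM (115 to 238) in Lats-deleted library 1, then the regenerative-like cluster led by Fxyd6, at 95.1 and 111 CPM, and the cycling progenitor-like cluster, at 107 and 67.8 CPM. The Clca4a-led and Muc1-led unnamed clusters and the Pgc-led stomach-like cluster lay between 55.3 and 92.3 CPM. The regenerative-like cluster led by Wfdc18 was lower, at 35.8 and 43.4 CPM, and the main stomach-like cluster of library 2 was lower again, at 8.70 CPM (3.50 to 17.9), below the intervals of the Wfdc18-led cluster. The 3 regenerative-like clusters spanned from 35.8 to 414 CPM of Thbs1. Since Thbs1 is itself the leading gene of the highest of them, this spread follows in part from the clustering. In control clusters no library was above 16.2 CPM, from 2 counts. At a finer clustering resolution of 2, Thbs1 peaked at 505 and 354 CPM in a cluster led by Krt14 and Ankrd1, and at 298 and 381 CPM in one led by Plat.

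Tgfb2 was highest in the same Thbs1-led cluster, at 237 (216 to 261) and 153 (131 to 178) CPM. The cluster held 81.9% and 60.5% of the Tgfb2 counts, against 50.72% and 19.05% of the counts of all genes. Tgfb2 is itself a leading gene of this cluster, so its excess there follows in part from the clustering. The Fxyd6-led regenerative-like cluster came next, at 102 and 98.0 CPM, with intervals that overlap between its libraries and lie below those of the Thbs1-led cluster. The Wfdc18-led cluster had little, at 4.21 and 12.4 CPM, from 2 and 4 counts. In controls, 5 of the 9 Tgfb2 counts came from goblet-like cells of control library 2, at 40.4 CPM (13.1 to 94.3).

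Tgfbr2 was spread more evenly. The Thbs1-led cluster was at 134 and 114 CPM, the Fxyd6-led cluster at 93.6 and 66.0, the Wfdc18-led cluster at 94.7 and 74.3, and cycling progenitor-like cells at 94.3 and 73.2. The Clca4a-led cluster was at 122 and 62.8, and the Muc1-led and stomach-like clusters of library 2 lay between 44.8 and 55.4 CPM. Counting intervals of the regenerative-like and cycling clusters overlapped, except those of the Thbs1-led and Fxyd6-led clusters in library 2. The stromal-like cluster was the highest of all, at 337 CPM (259 to 430) in Lats-deleted library 1. It held 14.4% of that library's Tgfbr2 counts and 2.78% of those of library 2, against 5.34% and 0.595% of all counts. Without stromal-like and stomach-gene clusters, the log2 fold change over all remaining cells was 3.85 for Tgfbr2, 4.92 for Tgfb2 and 6.18 for Thbs1, with all of these calls kept.

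Tgfb3 followed other cells. In Lats-deleted library 1, the stromal-like cluster held 47.6% of its counts, at 105 CPM (64.2 to 162), against 5.34% of all counts. In library 2 the stomach-gene clusters held 69.6% of the Tgfb3 counts. Of that library's 5826856 counts of all genes, these clusters held 1880734, 804215 and 216818. Most of the 69.6% came from the unnamed cluster led by Muc1 and Cldn18, at 55.3 CPM (45.2 to 67.0). In the Thbs1-led cluster Tgfb3 was at 7.75 and 13.5 CPM. Smad3, in contrast, lay between 26.3 and 59.1 CPM in every Lats-deleted cluster with at least 20 cells in a library, and Tgfb1 between 14.8 and 47.3 CPM.

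**Figure D3:**
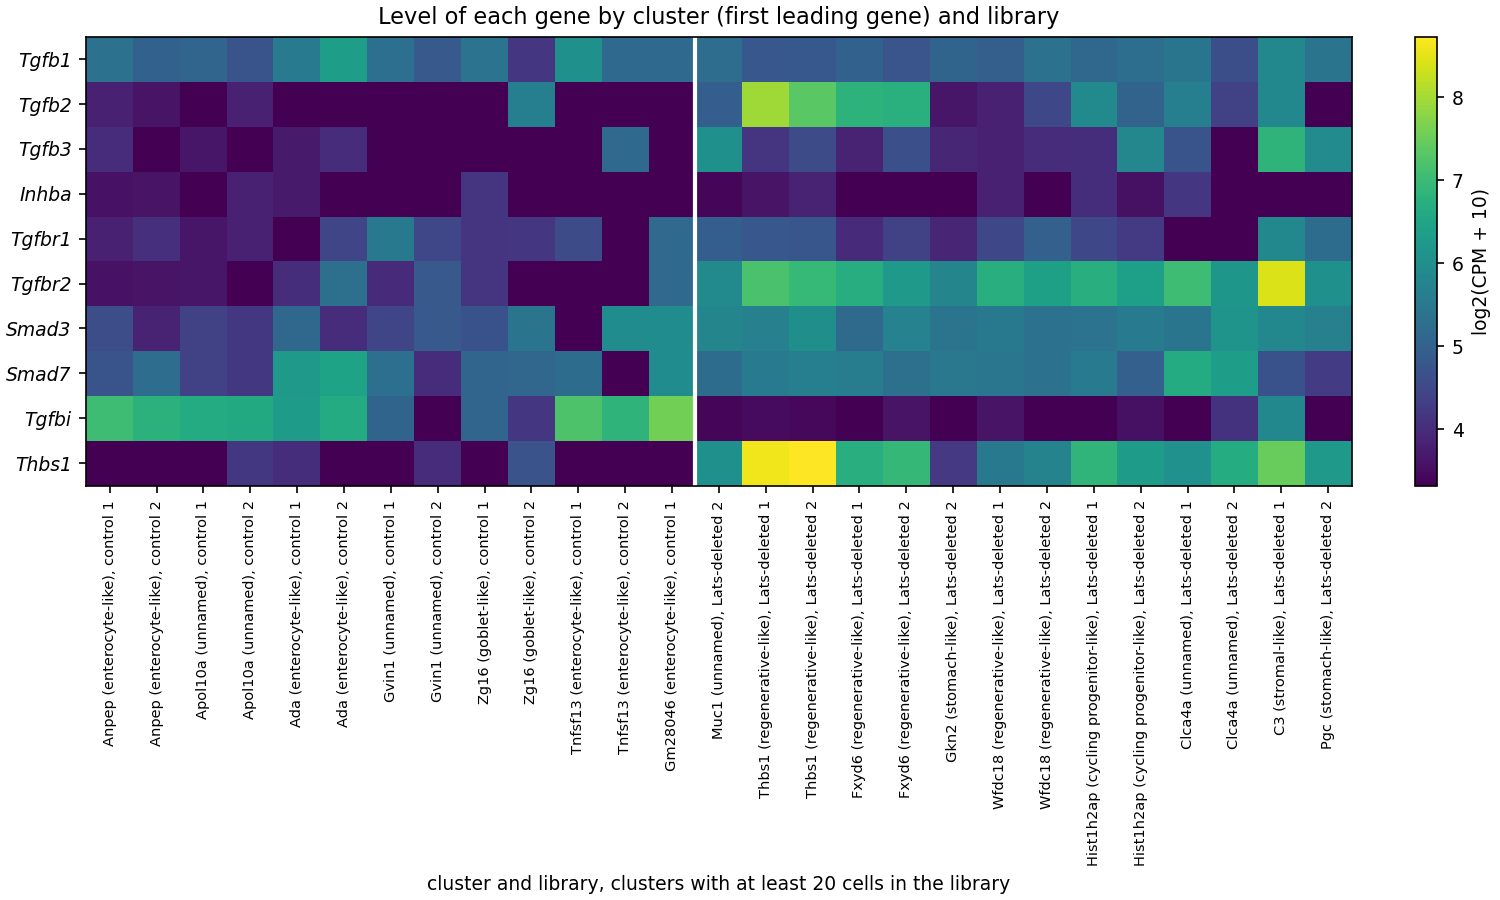
Level of each gene as log2(CPM + 10), by colour, in every cluster with at least 20 cells in a library; columns are clusters named by their first leading gene, with control libraries left of the white line. Thbs1 and Tgfb2 are brightest in the Thbs1-led cluster, Tgfbr2 is bright across Lats-deleted clusters and most in the stromal-like one, and Tgfbi is bright in enterocyte-like columns.

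Tgfbi was highest in enterocyte-like cells. In controls, enterocyte-like clusters with at least 20 cells in a library lay between 68.6 and 181 CPM, the unnamed Apol10a-led cluster at 89.7 and 87.0 CPM, and goblet-like cells at 23.7 and 8.08 CPM. In the Thbs1-led cluster Tgfbi had 2 and 1 counts, or 1.11 and 0.901 CPM, and of the 22 counts of Lats-deleted library 1, 40.9% were in the stromal-like cluster. Enterocyte-like cells made up 58.8% and 58.3% of the control cells and 3.99% and 1.40% of the Lats-deleted cells. Within them, Tgfbi was at 108 (87.6 to 131) and 100.1 (77.9 to 127) plain CPM in controls and at 106 (42.6 to 218) and 89.7 (24.4 to 230) CPM after deletion, from 7 and 4 counts in 29 and 18 cells. The groups overlapped, and with a minimum of 10 cells per library, chosen after seeing the data, the log2 fold change was -0.14 (SE 0.490, edgeR adjusted p = 0.986). So few counts leave a wide interval, and 9 of 4855 genes (0.185%) were called in these cells, none of them among the 3 of the 10 genes that were tested there (Tgfbi, Tgfb1 and Smad7). These cells were grouped by their own expression, and were thus selected for having stayed enterocyte-like. Whether they had lost Lats1 and Lats2 was not tested, so the Tgfbi levels within them do not measure the effect of deletion in enterocytes.

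Thbs1 and Tgfb2 were not detected in the 47 enterocyte-like cells of the Lats-deleted libraries. Taking 0 counts to allow 3, this allows a level of up to 27.1 CPM, below that in the Thbs1-led cluster, and a share of up to 6.38% of cells with a count. The latter limits cells with a count at this depth, not cells expressing the gene. Tgfbr2 had 1 count there, at 9.03 CPM (0.229 to 50.3), against 6.22 CPM (2.98 to 11.4) in control enterocyte-like cells. Tgfb1 had 0 counts in these 47 cells and 57 in 755 control enterocyte-like cells, at 35.5 CPM (26.9 to 46.0), a difference that did not pass (edgeR adjusted p = 0.465). Median depth was alike, at 1825 and 1740 counts per cell.

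**Figure D4:**
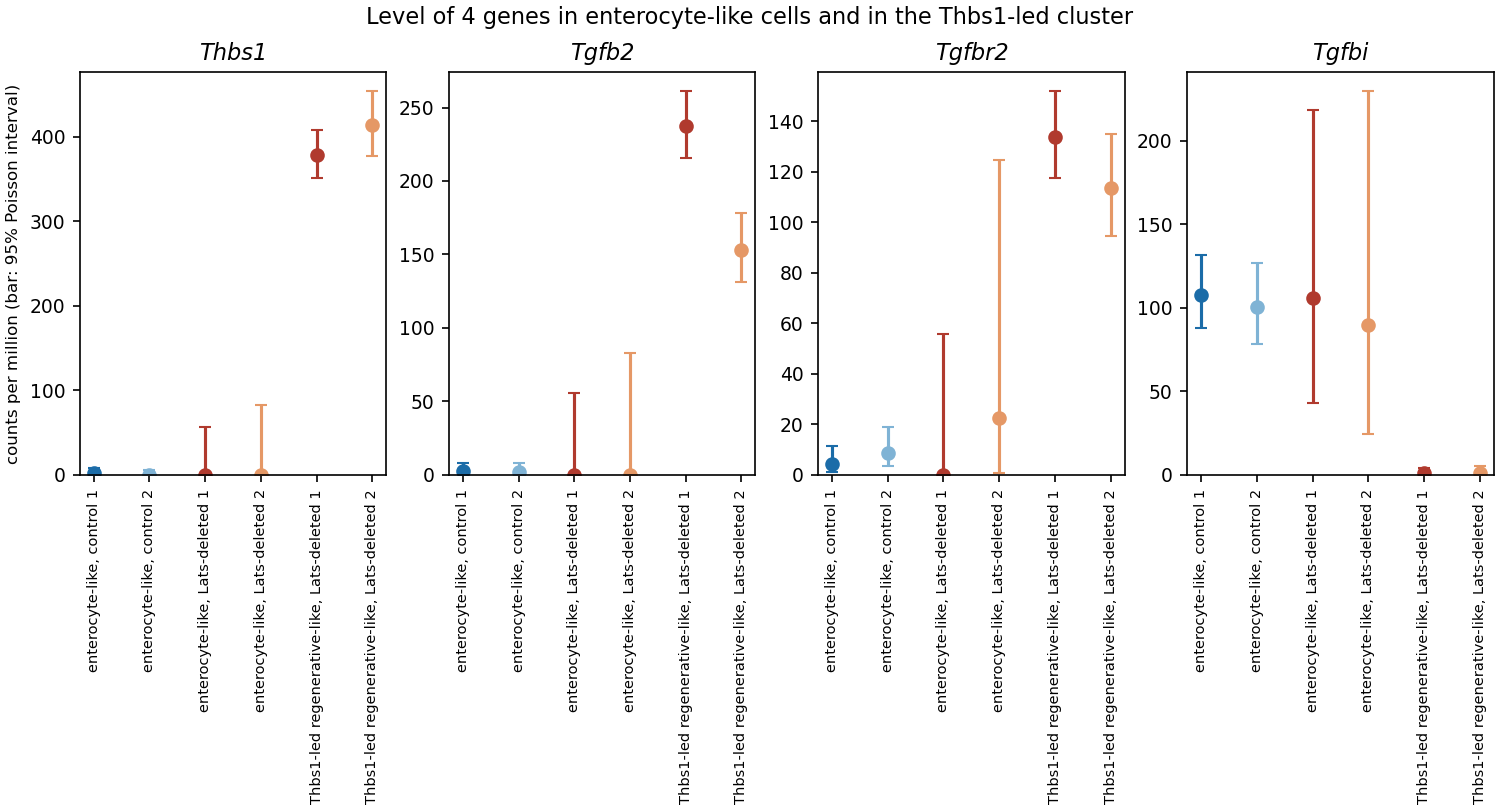
Plain CPM of Thbs1, Tgfb2, Tgfbr2 and Tgfbi in enterocyte-like cells of the 4 libraries and in the Thbs1-led cluster of the Lats-deleted libraries; bars are 95% Poisson intervals. Tgfbi lies between 89.7 and 108 CPM in enterocyte-like cells of both groups and at 1.11 and 0.901 CPM in the Thbs1-led cluster. Of the cells shown, those of that cluster have the highest levels of Thbs1, Tgfb2 and Tgfbr2.

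Markers of other cell types were read beside these results. In the Thbs1-led cluster all 12 stromal markers had a count and summed to 42.2 CPM, against 25000 CPM in the stromal-like cluster, and 7 endothelial markers summed to 18.9 CPM. The 6 markers of platelets and megakaryocytes, cells rich in thrombospondin 1, summed to 25.7 CPM there and to 11.5 to 24.2 CPM in the 4 libraries. At a resolution of 2 they summed to 59.3 CPM in an unnamed cluster led by Acta2 and Tagln, with Thbs1 and Ppbp among its leading genes, Pf4 and Gp9 at 0, and 125 cells of Lats-deleted library 2. That cluster held 28.9% of the library's Thbs1 counts, and 684010 of its 5826856 counts of all genes. Thbs1 was at 307 CPM (267 to 351) there, and the part of platelet RNA in this level was not tested. Leukocyte markers, which include those of macrophages, summed to 450 and 711 CPM in controls and 140 and 92.7 CPM after deletion, with Tyrobp at 0 in 3 of the 4 libraries. They summed to 3528 CPM in the goblet-like cluster, from 4 of the 11 markers, with Cd68, Csf1r, Fcer1g and Tyrobp at 0. In the Ada-led enterocyte-like cluster they summed to 789 CPM. The sum was thus not read from leukocytes alone, and the part of leukocytes in the fall of Tgfbi was not tested.

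The other genes of the pathway were read from 7 lists without the 10 genes, against the same 30.8% of all genes called. These lists too were chosen with earlier results of these data known. Of the latency and activation list, 7 of 15 tested genes rose and 0 fell, with a median log2 fold change of 1.16. Itgb6, the integrin subunit that frees latent TGF-beta on epithelia, went from 32.6 and 17.6 to 308 and 249 CPM (log2 fold change 3.45, SE 0.332, edgeR adjusted p = 0.00062). Plat, a protease activator, was at 1.42 and 0.879 CPM, from 2 and 1 counts, against 588 and 187 CPM. The αv integrin gene Itgav was at 38.2 and 37.8 against 121 and 117 CPM (log2 fold change 1.65, SE 0.203, edgeR adjusted p = 0.00161) and lost its call without control library 1, at 0.0515. Itgb1, Mmp14, Ltbp4 and Plau also rose. Without control library 1 or 2 the list's calls dropped to 2 or 3, while the calls over all genes dropped from 3869 to 1228 or 1478.

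Of 29 tested genes known as TGF-beta-induced, 15 rose and 0 fell, with a median log2 fold change of 1.62. The lists overlap: of these 15, Itgb6 also counts in the latency and activation list, and Pmepa1 and Tgif1 among SMADs and their regulators. The other 14 were not called, among them Skil, Klf10, Cdkn1a and Cdkn2b. The list also leaves out 2 TGF-beta-induced genes described above, Tgfbi, which fell (log2 fold change -4.71), and Smad7, which did not pass (0.07). Ctgf, a matricellular gene that YAP also targets, was at 4.25 and 0 CPM in controls and 725 and 479 CPM after deletion. Pmepa1, an inhibitor of the SMAD signal, was at 51.0 and 24.6 against 687 and 547 CPM (log2 fold change 4.01, SE 0.385, edgeR adjusted p = 0.000616). Not all genes of the list lay in epithelial clusters: of the counts of Col1a2, Col3a1 and Vim in Lats-deleted library 1, 94.7%, 98.4% and 92.0% were in the stromal-like cluster. For Ctgf and Pmepa1, the Thbs1-led cluster held 74.1% and 59.5% of library 1's counts and 49.5% and 25.2% of library 2's. Of the counts of all genes it held 50.72% and 19.05%, so the Pmepa1 shares were only slightly above these. Without control library 1 or 2 the list's calls dropped to 5 or 6, and without the stromal-like cluster to 12 of 25.

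Among SMADs and their regulators, a list that also holds the latency protein gene Ltbp1, 6 of 19 rose and 3 fell, with a median of 0.27. Smad2, the partner of Smad3, was at 15.6 and 12.3 against 34.1 and 38.2 CPM (log2 fold change 1.37, SE 0.281, edgeR adjusted p = 0.0119). Smad1, which serves bone morphogenetic proteins (BMPs), was at 87.1 and 72.1 against 40.0 and 38.8 CPM (log2 fold change -1.02, SE 0.212, edgeR adjusted p = 0.0123). Without control library 1 or 2 the list kept 1 or 2 calls, and neither Smad2 (adjusted p up to 0.107) nor Smad1 (up to 0.164) passed. The other receptors gave 1 higher and 1 lower of 7, with a median of -0.04: Acvr1, an activin and BMP type I receptor, was at 10.6 and 8.79 against 23.6 and 22.6 CPM, and Acvr2a, a type II receptor, at 34.7 and 43.1 against 18.7 and 21.8 CPM. Both calls were lost without either control library and with DESeq2, that of Acvr1 also with cells thinned to 1000 counts, and that of Acvr2a with plain totals, no low count filter or at most 15% mitochondrial counts. Over the alternatives the log2 fold change of Acvr1 ran from 0.59 to 1.58 around 1.24, with an adjusted p of up to 0.320, and that of Acvr2a from -1.07 to -0.68 around -0.93, with one of up to 0.235.

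Of 7 other ligands of the superfamily, Bmp8b, Gdf15 and Bmp2 rose and Bmp3 and Bmp8a fell, with a median of 1.08. Bmp8b was at 4.96 and 9.67 against 110 and 64.2 CPM and Bmp8a at 18.4 and 14.9 against 2.05 and 3.74 CPM, but these near-identical paralogs may share reads, so their opposite directions are uncertain. Without control library 1 or 2 the list kept 2 calls. Of 9 antagonists, Fstl3, which binds activin, and the proteoglycan gene Dcn rose, and 0 fell, with a median of 0.84. The stromal-like cluster held 99.5% and 90.3% of the Dcn counts of the Lats-deleted libraries, and without control library 1 or 2 the list kept 0 or 1 calls. Of 12 SMAD-independent genes and thrombospondin receptors, 4 rose and 2 fell, with a median of 0.27. Cd36, a thrombospondin 1 receptor and fatty acid transporter of enterocytes, was at 131 and 134 against 6.67 and 3.09 CPM and fell by 4.81 on the log2 scale (SE 0.364, edgeR adjusted p = 0.000304). The laminin-binding integrin gene Itga3 was at 116 and 122 against 551 and 391 CPM (log2 fold change 1.98). Without control library 1 or 2 this list kept 1 call.

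Across 27 cluster-by-library sums and 12071 genes, likeness was measured as Pearson's r of log2(CPM + 10), as a description, since the sums share libraries, cell types and depth. Thbs1 was most like Crip2 (r = 0.932), Bst2 (0.930) and Fxyd6 (0.924), and Tgfb2 most like Cryab (0.883), Dlg1 (0.875) and Chac1 (0.869). Tgfbr2 was most like Rbms1 (0.927), Ctsl (0.924) and Tead1 (0.911), and Tgfbi most like Maf (0.964), Enpep (0.960) and Fth1 (0.954). Among the 10 genes themselves, Thbs1 was close to Tgfb2 (0.869) and Tgfbr2 (0.843) and opposite to Tgfbi (-0.695), while its likeness to Tgfb1 was -0.273.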

How the data were processed

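Single-cell RNA was counted in 4 libraries. Per the file headers, the deposited values are counts of genes (columns) in barcodes (lines). All were whole numbers, and whether they count molecular identifiers or use strand is not given in the sources used here. Per the submitters' processing notes, RSEM 1.3.0, Bowtie 1.1.1.1 and SAMtools 1.3.1 were used with mm10; no role is given. The 10 genes and all lists were chosen with earlier results of these data known. Cells were clustered with scanpy 1.11.5 (Leiden, resolution 1) and named from marker lists; doublets were not removed. Counts summed per library were filtered (filterByExpr), scaled by TMM and tested with edgeR 4.0.16 in R 4.3.3 without a block, with DESeq2 1.42.0 as an alternative. The test was checked on simulated counts with a fixed spread, smaller than that between the Lats-deleted libraries for genes such as Tgfb2. That check does not cover error rates at the spread seen here. Intervals cover counting error only, with exact Poisson limits for levels and exact binomial limits for shares; where a count of 0 is said to allow a level or share, that limit is 3 counts. Coordinates are from GENCODE M21. Tgfb2, Thbs1 and Tgfb3 overlap antisense gene models that have no column, so reads of both cannot be told apart. From each pathway list, up to 3 genes of smallest p were named, and for each of the 10 genes with at least 50 counts the 3 genes most like it, of which 4 sets are printed; the names beyond these, such as Mmp14, Gdf15 and Vim, were chosen after their values were seen. The planned test within enterocyte-like cells needed 20 cells per library, and Lats-deleted library 2 held 18; the tests in stem-like and cycling progenitor-like cells were not made, since at a resolution of 1 no control cluster bore these names. At a resolution of 2, 2 stem-like clusters held control cells, and no test was run there. The same replicate numbers stand in both groups, but no label says that they mark a shared animal or day. A result for a gene withheld for evaluation is not reported here.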

Additional observations from a re-analysis of the deposited data

Results flagged for a closer look

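Barcodes left out of all comparisons because they did not pass the cell filter also held the genes that rose, above their level in the same kind of barcode of the controls. These barcodes had medians of 180 to 257 counts and come from the same libraries, so they are no independent sample. The part of free RNA from other cells in them was not tested. Over the barcodes left out, Thbs1 was at 87.3 CPM in the Lats-deleted and 2.62 CPM in the control libraries, from 396 and 6 counts. Tgfb2 was at 69.3 and 3.93 CPM, from 314 and 9 counts, and Tgfbr2 at 66.8 and 6.56 CPM, from 303 and 15 counts. Tgfbi went the other way, at 6.18 and 72.6 CPM, and Smad7 was at 39.0 and 37.6 CPM.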

How the results depend on the processing

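Of the 9 genes tested, 6 were called, and 5 to 6 in each of 10 alternatives that changed the scaling, the test, the filters, the cells or the depth. With the replicate block 6 were called. Same-numbered libraries correlated at r = 0.0468 across genes. With 2 libraries per group that also differ in stromal and stomach markers, this value cannot tell whether the numbers mark a shared day or batch. Leaving out 1 library gave 3 to 7 calls, 3 of them without control library 1. Smad7 changed sign without control library 2 (-0.00388) and without Lats-deleted library 1 (-0.0195), the lowest of its leave-one-out values, of which the highest was 0.23. The difference in the share of cells with a count turned from -0.526 to 3.72 percentage points for Tgfb1 without thinning, and for Inhba from -0.117 to 0.204 with 2000 counts per cell and to 0.465 without thinning. The mean level of Thbs1 in the cluster where it was highest moved from 397 CPM to 273 at a resolution of 0.5 and to 429 at 2, by the alternatives' own construction of other clusters. Tests in enterocyte-like cells had no alternatives. The count of genes called was 1228 without control library 1 and 1478 without control library 2. Depth limits the low levels: each control library held only 2 to 9 counts of Thbs1, Tgfb2, Tgfb3 and Tgfbr2. The 2 libraries per group limit all tests, and sex moved with genotype.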
